A study of Mus musculus with 6 samples.

Results

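The expression of 10 macrophage genes (Csf1, Csf1r, Cd68, Adgre1, Mrc1, Cd163, Arg1, Nos2, Trem2 and Cd14) was compared between melanoma grafts of the hind footpad and of the flank skin. The genes were chosen by symbol as markers of macrophage identity and activation, and all 10 were found among the 45777 genes of the count table. The grafts were B16F10, a transplantable mouse melanoma cell line, grown in Foxn1-/- hosts that the labels give as 8 weeks old at both sites, with 3 footpad tumors and 3 flank skin tumors and 1 library per tumor. Foxn1-/- (nude) mice lack a normal thymus and therefore most T cells but keep macrophages and other myeloid cells, and the study implanted the cells at these sites to compare a weight-bearing with an unloaded position. The study's methods also describe grafts in C57BL/6J mice, give 6 weeks as the age of the hosts and speak of isolated tumor cells without naming a separation step, so the host was taken from the labels. The labels do not say which mouse each tumor came from, and the p-values below measure the spread between these tumors only.

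Macrophages of tissues and tumors depend on the receptor tyrosine kinase encoded by Csf1r, which binds the growth factor CSF1. Their state varies with the signals they meet. Exposure to IL-4 or IL-10 is associated with Arg1, Mrc1 and Cd163, and exposure to bacterial lipopolysaccharide (LPS) and interferon-gamma with Nos2, although both programs can be present in 1 tumor and several of these genes are also expressed by other cells. Tumor-associated macrophages of melanoma grafts are a well-known part of the stroma.

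The libraries held between 46529649 and 66364366 reads on genes, and values are given as CPM, read counts divided by the TMM-scaled library size, in the order of replicates 1, 2 and 3. A level of 3 reads, taken as the detection floor, corresponds to at most 0.0673 CPM, and the lowest value of any of the 10 genes was 14 reads, so counting error was small beside the spread between tumors. Footpad replicate 2 stood apart from the other footpad tumors: its summed neutrophil markers were 6.77 CPM, against 352 and 174 CPM in replicates 1 and 3, while its summed keratinocyte markers were 439 CPM and its skeletal muscle markers 1006 CPM. Flank replicate 1 held the lowest level of all 6 tumors for 8 of the 10 macrophage genes. In bulk RNA, fewer macrophages in the sample, less RNA per macrophage and expression of these genes by other cells cannot be told apart.

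All 10 genes had a higher fitted level in footpad tumors, and 1 of them, Cd68, passed the test (edgeR, Benjamini-Hochberg adjusted p under 0.05 over 17210 genes tested, and a fold change of 2 or more), while 0 were called lower. Over all genes tested, 2.89% were called higher and 0.872% lower, 3.76% in all. An unadjusted p under 0.05 was found for 6 of the 10 (Csf1, Cd68, Arg1, Nos2, Trem2 and Cd14), against 14.8% of all genes that were higher in footpad tumors at that level. Every footpad tumor lay above every flank skin tumor for 7 of the 10 genes (Csf1, Csf1r, Cd68, Adgre1, Nos2, Trem2 and Cd14), and 17.5% of all genes showed this. The median log2 fold change of the 10 genes was 1.40, beside -0.0042 over all genes, and 49.7% of all genes had a fitted change above 0. The call differed by method and by tumor: DESeq2 called 5 genes (Csf1, Cd68, Nos2, Trem2 and Cd14), edgeR without footpad replicate 2 called 4 (Csf1, Cd68, Nos2 and Cd14), and edgeR called 0 without any one of the other 5 tumors, where between 5 and 9 of the genes had an unadjusted p under 0.05.

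**Figure D1:**
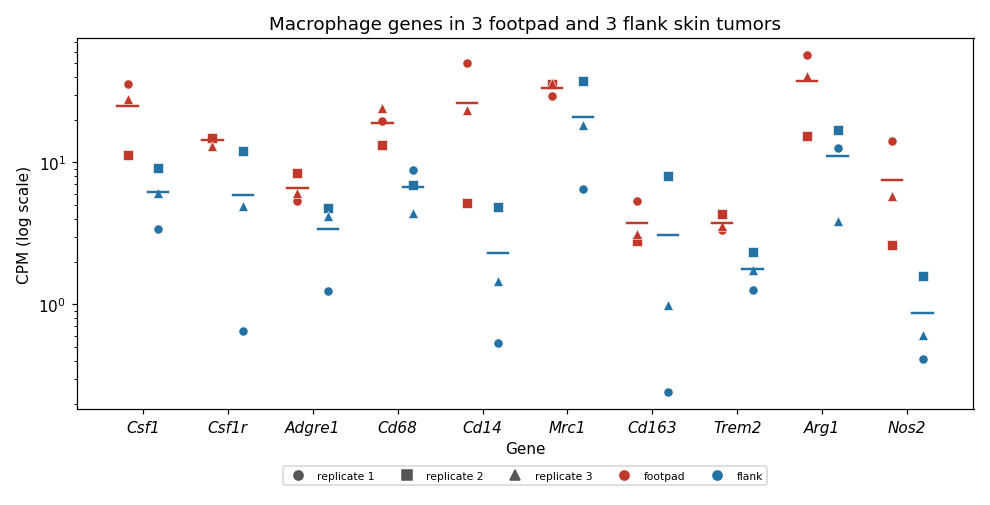
CPM of the 10 genes on a log scale in each tumor, with footpad tumors in red, flank skin tumors in blue, a marker shape for each replicate number and a bar at the mean of each site (n = 3). The groups do not overlap for 7 genes, and flank replicate 1 (blue circle) is the lowest of the 6 tumors for 8 genes, all but Cd68 and Arg1.

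Csf1 (chr3:107741048-107760469, GRCm38, minus strand) encodes the growth factor on which macrophage survival depends and is made by fibroblasts, endothelial cells and tumor cells as well as by macrophages. It measured 35.8, 11.2 and 27.8 CPM in footpad tumors and 3.42, 9.07 and 6.09 CPM in flank skin tumors. The groups did not overlap, but footpad replicate 2 and flank replicate 2 lay close to each other. The difference was 4.03-fold (log2 fold change 2.01, SE 0.49), with an edgeR adjusted p of 0.0593. Without footpad replicate 2 the adjusted p was 0.0272, over the 14 alternatives it ranged from 2.53e-04 (DESeq2) to 0.182, and Csf1 passed 0.05 in 4 of them.

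Csf1r, on chromosome 18, encodes the receptor for CSF1 and IL-34 and defines the macrophage lineage. Its levels of 15.2, 14.8 and 13.0 CPM were nearly equal in the footpad tumors, whereas the flank skin tumors held 0.655, 12.04 and 4.94 CPM. The 3 footpad values lay above all flank values, yet the flank skin tumors spread over 18.4-fold, from 38 reads in replicate 1 to 704 reads in replicate 2. The fitted difference of 2.44-fold (log2 1.29, SE 0.79) was smaller than that spread and did not pass (edgeR adjusted p = 0.351). It was 0.75 on the log2 scale without flank replicate 1 and 2.35 without flank replicate 2, and passed under none of the 14 alternatives. The gene overlaps Hmgxb3 on the opposite strand and the microRNA gene Mir6983 on its own, and the strand setting of the read counting is not given in the sources used here.

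Of the markers of mature macrophages, Cd68 was the gene that was called. Cd68 (chr11:69664213-69666170, minus strand) encodes a heavily glycosylated protein of the endosomes and lysosomes of macrophages. Its levels were 19.5, 13.3 and 24.3 CPM in footpad tumors (mean 19.0 ± 5.50, SD, n = 3) and 8.80, 6.89 and 4.43 CPM in flank skin tumors (6.71 ± 2.19). The lowest footpad tumor lay above the highest flank tumor, and the highest flank tumor was replicate 1, the tumor in which 8 of the other genes were lowest. That tumor held 0.655 CPM of Csf1r and the highest summed melanocyte markers, 25513 CPM. Which cells carried the Cd68 reads was not tested. The difference was 2.84-fold (log2 1.51, SE 0.32, edgeR adjusted p = 0.0429). When single tumors were left out, the log2 fold change stayed between 1.27 and 1.75, but the adjusted p was between 0.0335 and 0.148 and passed only without footpad replicate 2.

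Adgre1 (chr17:57358581-57483529), which encodes the F4/80 antigen, the classical surface marker of mouse macrophages, had 5.32, 8.37 and 6.08 CPM in footpad tumors and 1.24, 4.77 and 4.17 CPM in flank skin tumors. The groups did not overlap, with a gap between 4.77 and 5.32 CPM. The difference was 1.94-fold (log2 0.96, SE 0.48) and the edgeR adjusted p 0.258. It did not pass under any of the alternatives.

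Cd14, on chromosome 18, encodes the co-receptor that hands LPS to the TLR4 complex, and is expressed by monocytes, macrophages and, at a lower level, neutrophils. It showed the largest fitted difference of the 10 genes and also the largest spread within the footpad. The footpad tumors held 49.6, 5.18 and 23.5 CPM and the flank skin tumors 0.535, 4.88 and 1.47 CPM. Footpad replicate 2 was barely above flank replicate 2, and the highest tumor exceeded the lowest by 9.59-fold within the footpad and 9.12-fold within the flank. The fitted difference was 11.4-fold (log2 3.51, SE 0.99) with an edgeR adjusted p of 0.0816. Leaving out footpad replicate 1 lowered the log2 value to 2.64, and leaving out flank replicate 2 raised it to 4.69. The adjusted p was 0.0438 without footpad replicate 2 and ran from 0.0173 (DESeq2) to 0.239 (without footpad replicate 1) over all alternatives, with 3 of 14 under 0.05. Neutrophil markers were high and low in the same footpad tumors as Cd14, and their part in its difference was not tested.

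Trem2 (chr17:48346401-48352276) encodes a lipid-sensing receptor that signals through the adaptor TYROBP and marks lipid-laden and tumor-associated macrophages. Its levels of 3.32, 4.36 and 3.59 CPM in footpad tumors lay above the 1.26, 2.34 and 1.76 CPM of the flank skin tumors. Both groups were tight, with highest-to-lowest ratios of 1.31 and 1.86. The log2 fold change of 1.07 (SE 0.32) had an edgeR adjusted p of 0.0952 and passed 0.05 in 1 of 14 alternatives, DESeq2, at 0.0215, while the others reached up to 0.228.

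The genes of the mannose receptor and the hemoglobin scavenger receptor, both associated with IL-4 or IL-10 exposure, did not separate the sites. Mrc1 (chr2:14229414-14332023), which encodes the mannose receptor CD206, measured 29.4, 35.3 and 36.0 CPM in footpad tumors and 6.52, 37.4 and 18.3 CPM in flank skin tumors. Its highest value of all 6 tumors was in flank replicate 2, and the fitted difference was 1.62-fold (log2 0.69, SE 0.52, edgeR adjusted p = 0.439), moving to a log2 fold change of 1.43 without flank replicate 2 and 0.27 without flank replicate 1. Cd163 (chr6:124304636-124330529), which encodes the scavenger receptor for hemoglobin-haptoglobin complexes, had 5.34, 2.80 and 3.14 CPM in footpad tumors and 0.241, 8.04 and 0.991 CPM in flank skin tumors. Here too flank replicate 2 was the highest of all 6 tumors and flank replicate 1, with 14 reads, the lowest, a spread of 33.3-fold within 1 site. The log2 fold change of Cd163 was 0.28 (SE 1.03, edgeR adjusted p = 0.890), and it ranged from -0.27 without flank replicate 1 to 2.59 without flank replicate 2, so its sign depended on single tumors. Mrc1 overlaps the microRNA gene Mir511 on the same strand.

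Upstream sequence was held in the RefSeq promoter table (GRCm38.p6) for 5 of the 10 genes, Csf1, Cd68, Mrc1, Cd163 and Trem2. The 250 bases before the start are shown for Cd68, the gene called, and for Mrc1, a gene that did not separate the sites, beside it. Both are written 5′ to 3′ on the gene's strand, Cd68 from chr11:69666171-69666420 (minus strand) and Mrc1 from chr2:14229164-14229413 (plus strand), with matches to the motifs searched in capitals.
Cd68: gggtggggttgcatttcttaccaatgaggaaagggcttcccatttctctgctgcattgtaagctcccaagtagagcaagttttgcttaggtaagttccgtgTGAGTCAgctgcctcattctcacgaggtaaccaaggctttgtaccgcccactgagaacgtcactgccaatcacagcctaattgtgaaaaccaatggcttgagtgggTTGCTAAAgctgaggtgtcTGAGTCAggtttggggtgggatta
Mrc1: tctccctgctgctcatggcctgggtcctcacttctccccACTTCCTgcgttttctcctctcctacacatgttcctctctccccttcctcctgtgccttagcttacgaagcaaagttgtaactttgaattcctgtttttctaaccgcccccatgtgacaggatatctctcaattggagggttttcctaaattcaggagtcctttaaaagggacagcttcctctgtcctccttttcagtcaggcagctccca
The search covered both strands for the PU.1 core AGGAAGT, AP-1 TGANTCA, C/EBP TTGCNNAA, a TATA box TATAAA, an E-box CACGTG and the interferon-stimulated response element, all of which are known from myeloid, inflammatory or pigment cell promoters. The Cd68 stretch held 2 AP-1 matches, beginning at positions -149 and -24 from the start, and 1 C/EBP match at -43. The Mrc1 stretch held 1 PU.1 core on the reverse strand at -211. Trem2 had 1 AP-1 match, and Csf1 and Cd163 had none of the motifs searched. Of 32851 promoter windows of the same length in the table, 6.75% held an AP-1 match (0.338% held 2 or more), 9.56% a C/EBP match and 7.69% a PU.1 core, while 12.4% held the TATA box, 6.02% the E-box and 2.98% the interferon element. A match says only that these letters are present.

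Arg1 and Nos2 encode enzymes that both consume arginine, arginase 1 to make ornithine and urea, and inducible nitric oxide synthase to make nitric oxide. Arg1 (chr10:24915207-24927470) had 57.2, 15.3 and 40.5 CPM in footpad tumors and 12.7, 16.9 and 3.87 CPM in flank skin tumors. Footpad replicate 2 lay below flank replicate 2, so the groups overlapped, and the 3.38-fold difference (log2 1.76, SE 0.61) was not called (edgeR adjusted p = 0.129). Nos2 (chr11:78920787-78960226) had 14.2, 2.64 and 5.80 CPM in footpad tumors and 0.414, 1.57 and 0.607 CPM in flank skin tumors. The groups did not overlap, and the difference of 8.68-fold (log2 3.12, SE 0.74) missed the threshold (edgeR adjusted p = 0.0564). For Nos2 the log2 value fell to 2.28 when footpad replicate 1 was left out and rose to 3.87 when flank replicate 2 was. It passed 0.05 in 5 of 14 alternatives, among them the fit without footpad replicate 2 (0.0353), and reached 0.177 without flank replicate 3. Arg1 passed in none, its lowest adjusted p being 0.0542 without footpad replicate 2 and flank replicate 1 together.

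**Figure D2:**
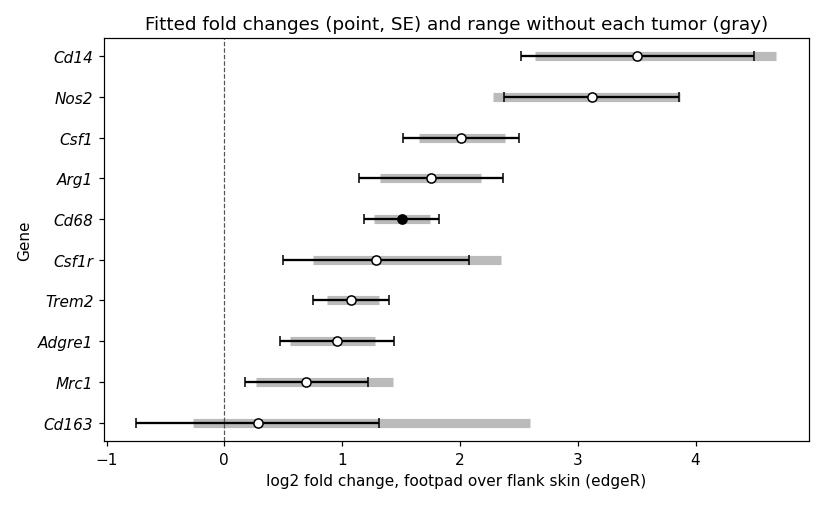
Fitted log2 fold change of each gene, footpad over flank skin (edgeR; point with a bar of 1 SE, filled for Cd68, the gene called), with the range over the 6 fits that leave out 1 tumor in gray. Cd68 and Trem2 have the narrowest bars, Cd163 extends on both sides of 0, and Cd14 and Nos2 lie farthest to the right.

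The order of the genes was compared per transcript length, as FPKM. In footpad tumors the mean FPKM was 22.1 ± 11.3 (SD, n = 3) for Arg1, 13.8 ± 4.15 for Cd68, 13.4 ± 10.8 for Cd14, 5.64 ± 0.963 for Mrc1, 5.63 ± 2.61 for Csf1, 3.28 ± 0.272 for Csf1r, 3.04 ± 0.629 for Trem2, 1.84 ± 0.572 for Adgre1, 1.55 ± 1.11 for Nos2 and 0.734 ± 0.207 for Cd163. In flank skin tumors Arg1 (6.81 ± 4.38) and Cd68 (4.92 ± 1.52) were again the highest, followed by Mrc1 at 3.63 ± 2.95, Trem2 at 1.46 ± 0.580, Csf1r at 1.43 ± 1.46, Csf1 at 1.39 ± 0.713, Cd14 at 1.29 ± 1.37, Adgre1 at 0.960 ± 0.581, Cd163 at 0.661 ± 0.944 and Nos2 at 0.191 ± 0.151. No neighbours in either order were separated, since their ranges over the tumors overlapped at each step. Cd14 was at rank 3 in the footpad and at rank 7 in the flank, and Csf1r and Adgre1 remained in the middle and lower part of both orders.

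The levels of the other genes were then set against Csf1r in the same tumor, a ratio that does not depend on library size. With 3 tumors per site the exact permutation test cannot give a p below 0.1, and all the ratios to Csf1r share the low Csf1r value of flank replicate 1. Mrc1 was the gene whose ratio to Csf1r did not overlap between the sites: it was 1.94, 2.38 and 2.76 in footpad tumors and 9.95, 3.11 and 3.70 in flank skin tumors. On the log2 scale it was lower in the footpad by a difference of -1.02 (two-sided exact permutation p = 0.1, the smallest possible, and 0.714 after Benjamini-Hochberg adjustment over 10 ratios). The ratio of Cd14 to Csf1r was 3.28, 0.349 and 1.80 in footpad tumors and 0.816, 0.405 and 0.298 in flank skin tumors, an overlap through footpad replicate 2 (log2 difference 1.44, exact p = 0.3, adjusted 0.714), and the difference was 2.37 without that tumor and 0.76 without footpad replicate 1. For Cd68 the ratio was 1.29, 0.900 and 1.86 against 13.4, 0.572 and 0.896 (log2 difference -0.53, exact p = 1.0), and the sign turned to 0.85 without flank replicate 1. The differences of Csf1 (-0.09), Arg1 (-0.24), Cd163 (-0.60), Adgre1 (-0.91), Trem2 (-0.95) and Nos2 (0.90) also overlapped, with exact p between 0.3 and 1.0. Of these, Csf1 and Arg1 turned above 0 without flank replicate 1 (0.70 and 1.13) and without footpad replicate 2 (0.43 and 0.33). Without flank replicate 1 the difference of Trem2 was -0.02, that of Adgre1 -0.35 and that of Nos2 1.67, and Nos2 gave 1.51 without footpad replicate 2 and 0.33 without footpad replicate 1. No ratio passed the adjustment.

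**Figure D3:**
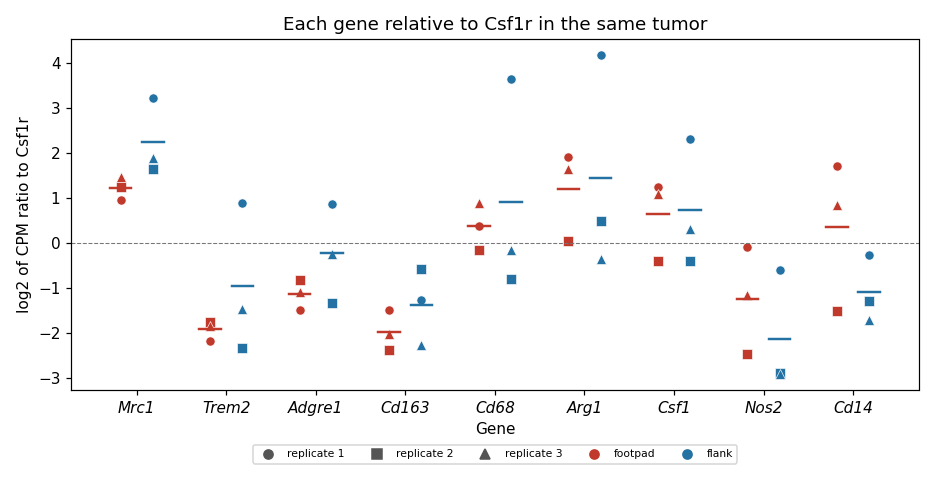
Log2 of the ratio of each gene to Csf1r in each tumor (CPM plus 0.05 CPM), with footpad tumors in red, flank skin tumors in blue and a bar at the mean of each site (n = 3). Mrc1 is the gene for which all flank skin tumors lie above all footpad tumors, and flank replicate 1 (blue circle) lies highest of the 6 tumors for 6 of the 9 genes.

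The balance of Arg1 to Nos2 was examined in the same way. Arg1 exceeded Nos2 in CPM in every tumor, by 4.04, 5.80 and 6.99 times in footpad tumors and by 30.7, 10.7 and 6.37 times in flank skin tumors. Footpad replicate 3 lay above flank replicate 3, so the groups overlapped, and the log2 difference was -1.14 (two-sided exact permutation p = 0.2, adjusted 0.714) and -0.54 without flank replicate 1.

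Around these enzymes, 2 of 11 tested genes of arginine metabolism were called higher in footpad tumors and 0 lower. Slc7a2, which encodes a cationic amino acid transporter that carries arginine into macrophages and other cells, had 15.4, 10.6 and 16.1 CPM in footpad tumors and 0.638, 1.37 and 0.415 CPM in flank skin tumors, a 17.4-fold difference (log2 4.12, SE 0.47, edgeR adjusted p = 0.0139). Ass1, which encodes the enzyme that rebuilds arginine from citrulline together with argininosuccinate lyase (Asl), had 55.0, 75.8 and 66.7 CPM against 20.7, 17.5 and 18.3 CPM (3.50-fold, log2 1.81, SE 0.16, edgeR adjusted p = 0.00677). These groups were far apart, and footpad replicate 2, low for Arg1 and Nos2, was the highest tumor for Ass1. Nos3, the endothelial nitric oxide synthase, followed with a log2 fold change of 1.54 (edgeR adjusted p = 0.0578) and was called by DESeq2, with a minimum of 10 counts and without footpad replicate 2, but not in the edgeR fit of all tumors. The median of the list was 0.049, so that the list as a whole lay near the median of all genes. Ass1 was called in 5 of 6 fits without 1 tumor and Slc7a2 in 4 of 6, and the log2 fold change of Slc7a2 was 4.73 without flank replicate 2.

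**Figure D4:**
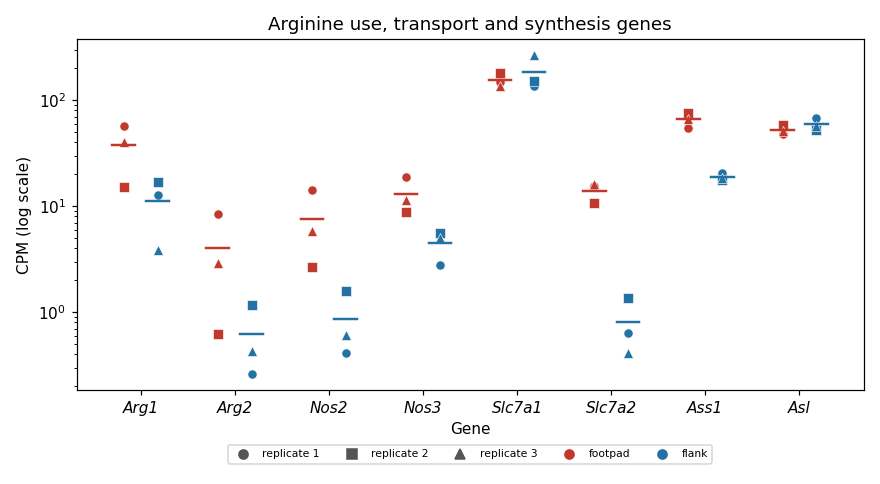
CPM on a log scale of 8 genes of arginine use, transport and synthesis in each tumor, footpad in red and flank skin in blue, with bars at the means (n = 3). Slc7a2 and Ass1 are widely separated between the sites, Arg1 overlaps, and so do Slc7a1 and Asl.

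The list of other genes of the CSF1 receptor pathway, the GM-CSF receptor and macrophage lineage control (13 tested, median log2 fold change 1.51) included 2 called higher and 1 called lower. The 2 called higher were the GM-CSF receptor chains. Csf2rb, the shared signalling chain of the receptors for GM-CSF, IL-3 and IL-5, was 7.84-fold higher in footpad tumors (log2 2.97, SE 0.62, edgeR adjusted p = 0.0410), and Csf2ra, the GM-CSF-binding chain, was higher by a log2 fold change of 2.32 (SE 0.52, adjusted p = 0.0491). Ptpn6, which encodes the phosphatase SHP-1 that restrains signalling in blood cells, was lower at 21.2, 12.4 and 17.4 CPM against 40.9, 38.0 and 30.5 CPM (log2 -1.10, SE 0.22, edgeR adjusted p = 0.0388). It was the 1 gene of the related lists called lower, and its call was lost in all 6 fits without 1 tumor. Gab2, a docking protein below the receptor, had an adjusted p of 0.0382 but a log2 fold change of 0.64, below the required fold. Csf2ra was called in 1 and Csf2rb in 2 of the 6 fits without 1 tumor, and the log2 fold change of Csf2rb was 3.74 without flank replicate 2. Over this list, DESeq2 called 7 genes higher and 1 lower.

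Among 22 tested markers of monocytes and macrophages other than the 10 genes, 2 were called higher and 0 lower by edgeR, with a median log2 fold change of 1.62. An unadjusted p under 0.05 was found for 13 of them, all higher, DESeq2 called 12 higher and limma on log2(FPKM + 0.1) called 4. Lyve1, a hyaluronan receptor of lymphatic endothelium and of perivascular resident macrophages, had 11.2, 7.12 and 9.45 CPM in footpad tumors and 0.931, 1.18 and 0.735 CPM in flank skin tumors (9.73-fold, log2 3.28, SE 0.31, edgeR adjusted p = 0.00677). Msr1, the class A macrophage scavenger receptor, had 34.3, 23.7 and 38.1 CPM against 5.16, 11.5 and 7.53 CPM (3.97-fold, log2 1.99, SE 0.32, edgeR adjusted p = 0.0234). Neither overlapped between the sites. Lyve1 was called in 5 of 6 fits without 1 tumor and Msr1 in 3 of 6. Laptm5, a lysosomal membrane protein of blood cells, came next and was not called by edgeR (log2 2.28, adjusted p = 0.0648) but was by DESeq2, by limma on log2(FPKM + 0.1) and without footpad replicate 2 or flank replicate 2. Marco, another scavenger receptor, had 0 reads in all tumors.

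Genes of both activation lists were called higher in footpad tumors, and 0 of either list lower. Of 12 tested genes associated with IL-4 and IL-10 (median 1.06), Il13ra1, a chain of the IL-13 receptor, and Socs2, a feedback inhibitor of cytokine signalling, were called higher with log2 fold changes of 1.01 (SE 0.21, edgeR adjusted p = 0.0425) and 1.11 (SE 0.22, adjusted p = 0.0360), and Tgm2, a transglutaminase, was not (log2 2.40, adjusted p = 0.0504), though DESeq2, edgeR without a filter or with a minimum of 10 counts, and edgeR without footpad replicate 2 called it. Of 15 tested genes associated with LPS and interferon-gamma (median 2.26), Irf5, a transcription factor of inflammatory macrophages, was called higher with 10.7, 4.94 and 7.06 CPM against 0.862, 2.22 and 1.36 CPM (log2 2.35, SE 0.44, edgeR adjusted p = 0.0340). The costimulatory genes Cd40 (log2 2.26, adjusted p = 0.0570) and Cd80 (log2 2.89, adjusted p = 0.0578) were not called by edgeR but were by DESeq2 and without footpad replicate 2, Cd40 also with a minimum of 10 counts in every tumor. Each of these 3 calls held in 1 or 2 of the 6 fits without 1 tumor. Retnla and Il12b, often used to tell such states apart, had 0 reads in all tumors, as did Ifng, the gene of interferon-gamma itself.

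The partners of Cd14 and Trem2 were called by DESeq2 in part and not by edgeR. In the LPS receptor complex 0 of 8 tested genes passed edgeR (median 0.73), the nearest being the adaptor Myd88 (log2 1.06, adjusted p = 0.0530), the LPS-binding protein Lbp (log2 2.19, adjusted p = 0.0747) and the adaptor Tirap (log2 0.97, adjusted p = 0.0760), while these 3 had an unadjusted p under 0.05, DESeq2 called Lbp and Myd88, and limma on log2(FPKM + 0.1) called 1. Tlr4 itself, which encodes the receptor that CD14 serves, had 91.4, 88.5 and 99.1 CPM in footpad tumors and 124, 89.2 and 114 CPM in flank skin tumors, overlapping groups with a log2 fold change of -0.23. Tlr4 was chosen for mention after its values were seen. Among 16 tested genes of the TREM2 adaptor and of lipid-associated macrophages (median 0.46) 0 passed edgeR, with Syk, the kinase below the adaptor (log2 1.61, adjusted p = 0.0517), Tyrobp, the adaptor (log2 2.02, adjusted p = 0.0713), and the tetraspanin Cd9 (log2 0.48, adjusted p = 0.102) nearest. An unadjusted p under 0.05 was found for 8 of them, 6 higher and 2 lower. The 2 lower were Apoe (log2 -0.65, edgeR adjusted p = 0.196) and Fabp4 (log2 -0.70, edgeR adjusted p = 0.157). DESeq2 called Syk and Tyrobp, and limma called 0. Scavenger receptors (12 tested, median 1.5) had 3 called higher, Msr1 as above, the collagen-binding Mrc2 (8.52-fold, log2 3.09, SE 0.61, edgeR adjusted p = 0.0365) and Colec12 (4.82-fold, log2 2.27, SE 0.47, adjusted p = 0.0414). Mrc2 and Colec12 are also expressed by fibroblasts and endothelial cells, respectively, and were called in 2 and 1 of the 6 fits without 1 tumor, with log2 fold changes of 4.18 and 2.97 without flank replicate 2.

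Over these 8 lists, 119 genes without the 10 themselves, 107 were tested. Of the 107, 11 were called higher and 1 lower, beside 2.89% and 0.872% of all genes tested. The fitted change was above 0 for 82 of the 107, beside 49.7% of all genes. Every footpad tumor lay above every flank tumor for 48, beside 17.5% of all genes. The count of 11 was 24 without footpad replicate 2 and 0 without footpad replicate 3.

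Markers of some other cell types were also higher in footpad tumors, and those of others were not. The summed macrophage and monocyte markers were 677, 480 and 582 CPM in footpad tumors and 295, 410 and 297 CPM in flank skin tumors. Much of the flank sums came from Mertk and Sirpa, which were fitted slightly lower in footpad tumors and not called. Mertk had 112, 79.2 and 85.6 CPM in footpad tumors against 134, 91.9 and 89.6 CPM, and Sirpa 107, 118 and 98.8 CPM against 121, 125 and 129 CPM. The sums therefore understate the site difference of most other genes of the list. Summed fibroblast markers were 2765, 2789 and 3772 CPM against 95.9, 433 and 124 CPM, with 8 of 10 genes called higher, and among flank skin tumors they were highest in replicate 2, as were 9 of the 10 macrophage genes. Summed neutrophil markers were 352, 6.77 and 174 CPM against 20.1, 30.0 and 4.25 CPM, with 0 of 10 tested genes called by edgeR, 7 with an unadjusted p under 0.05, 2 called by DESeq2, 0 by limma and a median log2 fold change of 3.39. The neutrophil marker Csf3r is also in the monocyte list. The mast cell list summed to 25.1, 1.31 and 11.8 CPM against 0.242, 3.35 and 0.639 CPM, nearly all of it from Hdc, the histamine-forming enzyme, which other myeloid cells also express, while the protease gene Cpa3 had 0.0898, 0.146 and 0.163 CPM in footpad tumors. In the footpad the order of the neutrophil sum, replicate 1 above 3 above 2, was also that of Csf1, Cd163, Arg1, Nos2 and Cd14, but not that of Csf1r, Cd68, Adgre1, Mrc1 and Trem2. Lymphocyte markers summed to at most 0.653 CPM in any tumor, with Cd3g and Nkg7 at 0 reads throughout. Melanocyte markers, which the B16F10 cells themselves express, summed to between 10067 and 25513 CPM, with the highest sum in flank replicate 1. The part of these cells in the differences of the macrophage genes was not tested.

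**Figure D5:**
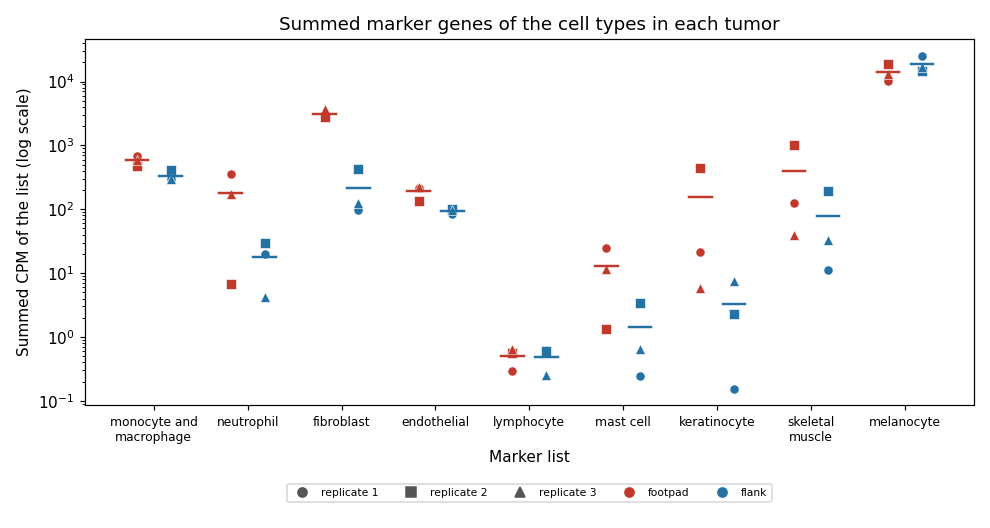
Summed CPM of marker lists for 9 cell types in each tumor on a log scale, footpad in red, flank skin in blue, bars at the means (n = 3). Fibroblast markers do not overlap between the sites, neutrophil markers and the mast cell list, which is mostly Hdc, are low in footpad replicate 2 (red square), which holds the most keratinocyte and muscle signal, and lymphocyte markers stay below 1 CPM.

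Genes with a like pattern over the 6 tumors were sought for Csf1r, Mrc1, Arg1 and Cd14, by the root mean square (RMS) difference of their log2 CPM after centring each gene on its mean. Those nearest to Csf1r (SD 1.58 on the log2 scale over the tumors) were Clec4a1, a myeloid C-type lectin (RMS difference 0.31), Igfn1 (0.33) and Tlr7, an endosomal receptor for single-stranded RNA (0.37). Clec4a1 was low throughout, at 1.35, 0.890 and 0.837 CPM in footpad tumors and 0, 0.547 and 0.399 CPM in flank skin tumors. Nearest to Mrc1 (SD 0.89) were Cd300ld5 (0.20), 4930509E16Rik (0.21) and C1qb, which encodes a chain of complement C1q and is made by macrophages (0.21). Cd300ld5 and 4930509E16Rik were low throughout, at most 0.510 and 0.919 CPM in any tumor. In flank replicate 1 they had 0.0690 and 0.155 CPM, near the detection floor. C1qb had 5.52, 7.38 and 6.10 CPM in footpad tumors and 1.71, 7.22 and 4.27 CPM in flank skin tumors, and thus shared with Mrc1 the low flank replicate 1 and the high flank replicate 2. Nearest to Arg1 (SD 1.25) were Gbp2b, an interferon-inducible guanylate-binding protein (0.12), Hivep3, a zinc finger protein (0.20), and Ifi204, an interferon-inducible protein (0.24). Nearest to Cd14 (SD 2.18) were the receptors Ptafr for platelet-activating factor (0.29), Hcar2 for hydroxybutyrate and niacin (0.31) and Ccr1 for inflammatory chemokines (0.31). Ccr1 had 39.3, 7.09 and 24.4 CPM in footpad tumors and 0.759, 6.79 and 2.14 CPM in flank skin tumors. Cd300ld5, Gbp2b and Ifi204 belong to families of closely related genes, and how reads that match several genes were treated is not given in the sources used here.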

How the data were processed

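RNA was measured by stranded total RNA sequencing in 3 footpad and 3 flank skin tumors. According to the submitters' notes and methods, reads were checked with FastQC 0.11.7, trimmed with Trimmomatic and aligned to mm10 with HISAT2 2.1.0. The counting program, its strand setting and its handling of multiply matching reads are not given in the sources used here. The authors deposited raw read counts per gene, which were tested here, and FPKM, scaled by the authors for length and depth, which were used for order between genes and as an alternative.

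Counts were fitted in R 4.3.3 with edgeR 4.0.16 (TMM, filterByExpr, glmQLFit, glmQLFTest; 17210 genes) with Benjamini-Hochberg adjustment over all genes. The SE was taken as the log2 fold change over the square root of F. Ratios used CPM + 0.05 and a two-sided exact permutation test in scipy 1.17.1. Coordinates came from RefSeq GRCm38, to which 45679 of 45777 genes matched by identifier. Because 26 symbols in the count table are spoiled as dates, symbols were taken from the FPKM files.

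The 10 genes and all lists were chosen with earlier results of these data known. Named are the 10 genes, the 3 genes of each related list with the smallest p and any called, and the 3 nearest patterns to 4 of the genes. Fibroblast, neutrophil and other marker lists are given by counts and sums. Alternatives were DESeq2 1.42.0, limma 3.58.1 on log2 FPKM, other scaling and filters, a replicate block and leaving out tumors. The fits were tested on simulated data.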

Additional observations from a re-analysis of the deposited data

How the results depend on the processing

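Same-numbered tumors had correlations of deviations from their site means of 0.0544, -0.0965 and -0.115. These values cannot show whether such tumors came from the same mouse. The study describes implanting flank and footpad at the same time, so tumors may share a mouse, and the pairing is unknown. With the number as a replicate block edgeR called 0 macrophage genes, 0 listed genes higher and 0 lower. Over all genes that fit called 0 in either direction, although 3551 had an unadjusted p under 0.05. DESeq2 called 5 macrophage genes, 37 related list genes higher, and 1154 genes higher and 352 lower over all, beside 1, 11, 497 and 150 in edgeR. A minimum of 10 counts in every tumor gave 3 macrophage genes and 19 list genes. Limma called 2 macrophage genes on log2(FPKM + 0.1), and on log2(FPKM + 1) it called 271 genes higher and 95 lower over all. With no fold threshold 248 genes were lower. Leaving out 1 tumor gave between 0 and 4 macrophage genes, 0 and 24 list genes higher, 0 lower, and, over all, between 0 and 639 genes higher and between 0 and 197 lower. Without footpad replicate 3 edgeR called 0 genes, while 3289 had an unadjusted p under 0.05. Without footpad replicate 2 and flank replicate 1 together, chosen after seeing the data, there were 4 macrophage genes, 34 list genes higher and 0 lower, and 1125 genes higher and 358 lower over all. The log2 fold change of Cd163 was below 0 without footpad replicate 1 (-0.06), flank replicate 1 (-0.27) or flank replicate 3 (-0.14) and without that pair (-0.09), and 2.59 without flank replicate 2. The log2 ratio of Csf1 to Csf1r turned from -0.09 to 0.19 with a pseudocount of 1 CPM, 0.055 with FPKM and up to 0.70 without 1 tumor (range from -0.66), that of Arg1 from -0.24 to 0.080 with that pseudocount and over -1.13 to 1.13 without 1 tumor, and that of Cd68 over -1.38 to 0.85. Per kilobase of annotated exon, CPM was 2.48 for Csf1r in the footpad and 0.760 and 0.361 for Trem2 in footpad and flank skin, below their FPKM. The fitted direction of the other 9 genes and the count of genes called lower (0) held under all alternatives run. What part depth had in the number of calls, and the causes of these shifts, were not tested.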

Other observations

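Of 10 fibroblast markers, Dcn, Lum, Pdgfrb, Col1a1, Col1a2, Col3a1, Thy1 and Fap were called higher in footpad tumors, and the median log2 fold change of the list was 3.23. Of 9 endothelial markers, Pecam1 and Emcn were called higher (median 0.95), with summed levels of 214, 136 and 219 CPM in footpad tumors and 83.9, 102 and 96.1 CPM in flank skin tumors. Dendritic cell markers summed to 111, 89.2 and 98.7 CPM against 65.5, 83.3 and 97.6 CPM, most of it from Fscn1, which is also expressed by tumor and stromal cells, and 0 of 6 tested genes were called by edgeR, DESeq2 or limma or had an unadjusted p under 0.05 (median 0.48). Of 8 melanocyte markers 0 were called by any of these tools (median -0.29), and 1 was lower at an unadjusted p under 0.05. Of keratinocyte and skeletal muscle markers 0 of 5 and 0 of 8 tested genes were called by edgeR, 4 and 0 had an unadjusted p under 0.05, and DESeq2 called 1 and 0, with medians of 4.59 and 2.06 and summed levels that were highest in footpad replicate 2. Of the 12 lymphocyte and 7 mast cell markers, 1 each had enough reads to be tested, Cd79a and Hdc, and neither was called by edgeR, DESeq2 or limma, Hdc alone having an unadjusted p under 0.05.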
